A study of Rattus norvegicus with 12 samples.

Results

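Interferon-stimulated genes are the genes that cells switch on after an interferon, or the viral nucleic acid that calls for one, has been sensed. Type I interferons act through a receptor and its JAK kinases on a complex that contains STAT2 and IRF9 and binds the interferon-stimulated response element (ISRE) in the promoters of these genes. Interferon gamma acts through the gamma-activated site (GAS). In the liver, hepatocytes and the resident macrophages (Kupffer cells) both express these genes, some of them at a low tonic level without infection.

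The account below is of 38 such genes in rat liver. They were chosen by name as interferon-stimulated genes, and selected on results of the same arrays, namely each gene's difference in log2 level between rats on the low protein diet and rats on the control diet. The differences of single members are therefore given as a description, without a test. Of the 38 genes, 36 had a probe matched by RefSeq accession, and Herc6 and Xaf1 had none. A total of 35 were measured, which means that a probe stood well above background on 5 or 6 of the 6 arrays of either diet. These 35 are among 21874 genes measured, of which 11395 carry a gene symbol and the rest are counted by their array identifier. Ifit1, which encodes a protein that binds viral RNA, stood well above background on 1 array of the low protein diet and on 0 arrays of the control diet, so only a bound is known for it.

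The livers came from adult male Wistar rats. For 4 weeks, 6 rats had eaten the low protein (LP) diet with 5% casein and 6 rats the control (CT) diet with 14% casein, the 2 diets being equal in energy. Each liver was hybridised to 1 single-colour Agilent array, numbered LP1 to LP6 and CT1 to CT6 by the labels. A level below is the log2 processed signal less the 75th percentile of its array, and levels of different genes are not comparable because each probe has its own brightness. A difference is LP minus CT, with its standard error from limma and n = 6 rats per diet. Arrays of the same diet correlated at 0.985 to 0.990 among LP rats and at 0.987 to 0.992 among CT rats over all measured genes. LP and CT arrays correlated at 0.981 to 0.987. The arrays lay on 2 slides, of which slide 1 held LP1 to LP4 with CT1, CT3, CT5 and CT6, and slide 2 held LP5 and LP6 with CT2 and CT4. All 7 hepatocyte markers on the list (Alb, Apoa1, Ttr, Serpina1, Tf, Fga and Apob) were measured. The samples are pieces of whole liver, so fewer cells of a type and less RNA per cell cannot be told apart.

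Most of the measured members had lower mean levels in LP livers. The difference was below 0 for 31 of 35 members (88.6%) and below 0 on both slides for 27 (77.1%), beside 55.1% and 38.2% of all measured genes. The median difference of the members was -0.28, with -0.26 on slide 1 and -0.36 on slide 2, beside a median of -0.03 over all genes. When arrays were not scaled, 27 of the 35 lay below 0, with a median of -0.15 beside 0.11 over all genes. The median of all genes thereby shifted by 0.13. Stat2 was the median member, with an LP mean 0.822 times its CT mean. The plot of differences per gene orders the 35 members by their difference.

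**Figure D1:**
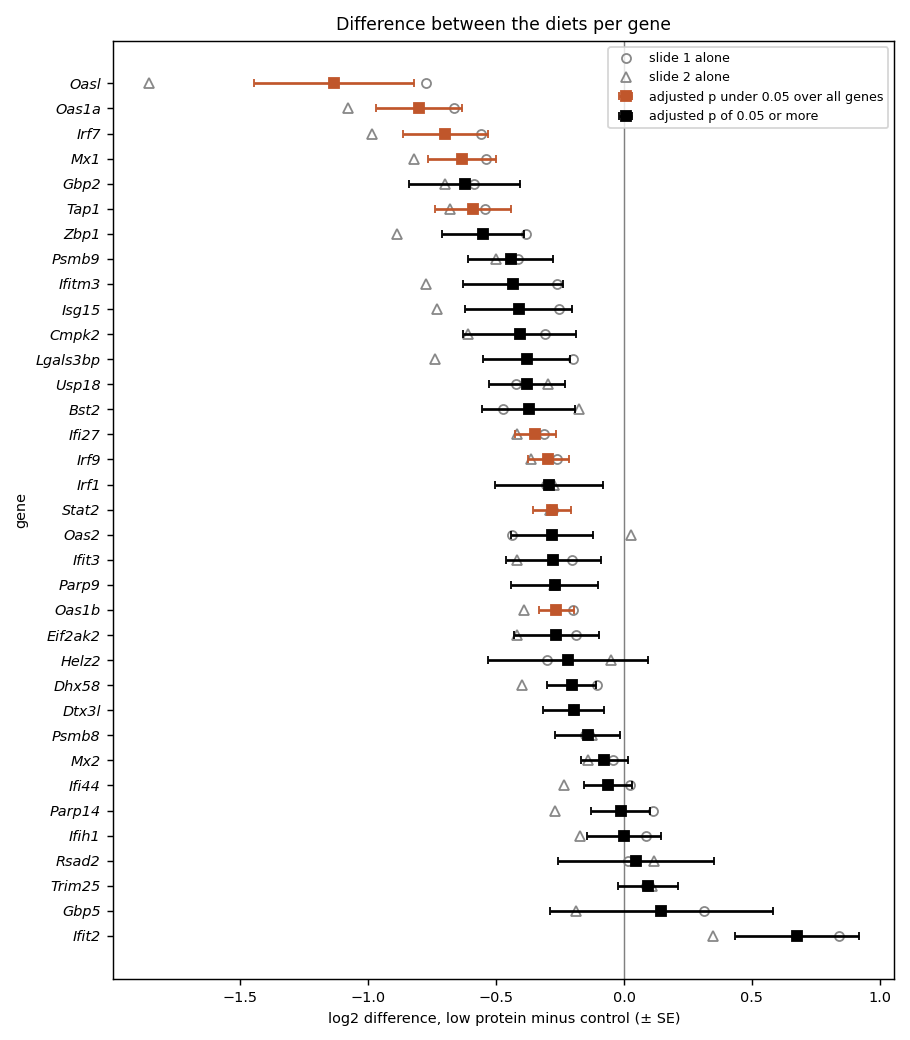
Log2 difference (low protein minus control, horizontal axis) for each of the 35 measured interferon-stimulated genes, as squares with bars for the standard error, and the difference on each slide alone as open symbols. The differences run between -1.13 for Oasl and 0.68 for Ifit2, and 31 of the 35 squares lie left of 0.

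In the fit over all 21874 genes, 9 members passed at an adjusted p under 0.05 (limma with Benjamini-Hochberg adjustment), all of them lower in LP livers: Oasl, Oas1a, Irf7, Mx1, Tap1, Ifi27, Irf9, Stat2 and Oas1b. The share of all genes that passed was 6.53%, with 3.05% lower and 3.48% higher. At an unadjusted p under 0.05, 15 members were lower and 1 was higher, where 21.6% of all genes passed, 11.3% lower and 10.3% higher. In 3 members (Oas1a, Mx1 and Oas1b) every LP rat lay below every CT rat, as in 1.97% of all genes, and the diets were separated in either direction in 4.96% of all genes. Because the members were chosen on this same contrast, nothing is read from these counts. The count of 9 became 3 without CT1, 5 without CT2, 4 without CT3, 3 without CT4 and 4 without CT5. It became 3 without LP2, 2 without LP5 and 5 without LP6. It was 1 when arrays were not scaled, 2 with no filter on dim probes, and 0 within either slide alone.

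Sequences just upstream of 4 members are printed here because they hold letters that match the response element of type I interferon, at different places and in both orientations. The ISRE core searched for was GAAA, then any 2 bases, then GAAA again, and the GAS core was TTCNNNGAA, each on both strands, in RefSeq promoter windows of the GRCr8 assembly that run from 250 bases before to 50 bases after the start of each gene. Such a window was on hand for 30 of the 38 members. The 150 bases before the start are given for Oas1a (chr12:41330316-41330465, plus strand), Oas1b (chr12:41395853-41396002, minus strand), Irf7 (chr1:205800024-205800173, minus strand) and Tap1 (chr20:4668544-4668693, minus strand), each 5′ to 3′ along its gene, with capitals for the bases that match the ISRE core on either strand.

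Oas1a: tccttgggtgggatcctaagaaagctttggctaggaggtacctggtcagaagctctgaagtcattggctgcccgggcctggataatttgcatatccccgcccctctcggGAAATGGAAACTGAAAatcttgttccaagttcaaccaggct
Oas1b: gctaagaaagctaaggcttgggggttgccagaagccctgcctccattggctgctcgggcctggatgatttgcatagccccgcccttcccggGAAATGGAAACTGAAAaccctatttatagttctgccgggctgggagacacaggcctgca
Irf7: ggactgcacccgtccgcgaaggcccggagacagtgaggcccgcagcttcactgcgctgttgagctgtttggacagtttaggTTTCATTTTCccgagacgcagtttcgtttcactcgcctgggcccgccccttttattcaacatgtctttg
Tap1: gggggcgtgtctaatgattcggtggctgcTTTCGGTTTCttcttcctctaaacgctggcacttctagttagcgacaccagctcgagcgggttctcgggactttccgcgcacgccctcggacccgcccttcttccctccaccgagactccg

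The Oas1a stretch holds 2 overlapping matches that begin at bases -41 and -35 from the start, and the Oas1b stretch holds the same run of capitals at bases -59 and -53. In Irf7 and Tap1 the match reads on the other strand, with its leftmost printed base at -69 in Irf7 and at -121 in Tap1. The ISRE core was present in 19 of the 30 member windows (63.3%), in 19 of 44 windows (43.2%) of the other interferon-induced effectors listed below, and in 1034 of 27457 windows of all genes in the table (3.77%). The GAS core was present in 8 of the 30 member windows (26.7%), in 9 of the 44 effector windows (20.5%) and in 2382 of all windows (8.68%). Both cores were present in 6 member windows and overlapped in 1. In 15 of the 19 members with an ISRE core, a match began within 100 bases upstream of the start. Of the 9 members that passed over all genes, 5 (Oas1a, Oas1b, Irf7, Tap1 and Ifi27) had the ISRE core, and Oasl, Mx1, Irf9 and Stat2 had no match in these letters within this window. A match is a description of the letters and shows neither binding nor regulation in these livers.

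**Figure D2:**
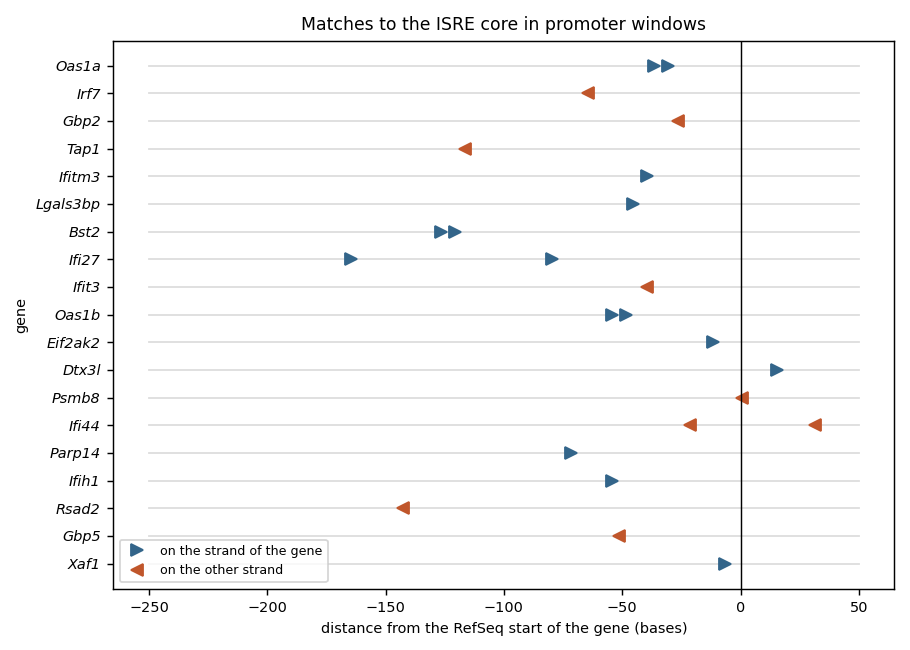
Position of each match to the ISRE core in the promoter windows of the 19 members that have one, as the distance in bases from the gene's start (horizontal axis), with 1 line per gene. Most of the matches lie within 100 bases upstream of the start, and those of Oas1a, Oas1b and Bst2 come as overlapping pairs.

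Enzymatically active oligoadenylate synthetases sense double-stranded RNA and make short adenylate chains that switch on the antiviral nuclease RNase L. Not every protein of the family need have this activity, and it was not measured here. All 4 members of the family, with the OAS-like Oasl among them, had a difference below 0, with a median of -0.54. Oas1a had levels of -1.69, -1.09 and -0.57 (lowest, median and highest) in LP rats, against -0.53, -0.40 and 0.04 in CT rats. All 6 LP rats lay below all 6 CT rats, and the LP mean was 0.574 times the CT mean (difference -0.80 ± 0.17). The difference was -0.66 on slide 1 and -1.08 on slide 2, and a second Oas1a probe gave -0.84. Oas1b, a further family member close to Oas1a on the chromosome, had levels of 3.62, 3.74 and 3.90 in LP rats, against 3.95, 4.00 and 4.11 in CT rats. Here too the diets did not overlap, although the difference was only -0.26 ± 0.07. The 2 genes are separated by 2 other protein-coding genes, and both have the paired match to the ISRE core shown above.

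Oasl, an OAS-like protein that enhances RNA sensing in human cells, was the member with the most negative difference, at -1.13 ± 0.31. Its levels were -7.41, -6.99 and -5.89 in LP rats, against -6.71, -5.56 and -5.06 in CT rats. In 4 of the LP rats it was lower than in any CT rat, and the ranges overlapped. The probe was dim, with 2 of 6 LP arrays and 6 of 6 CT arrays well above background. Oasl was thus measured only through its CT arrays, the diet in which it was higher. Its difference was -0.77 on slide 1 and -1.86 on slide 2. It was -0.36 after normexp background correction and -0.60 in the deposited values, so its size depends on how dim spots are treated. Oas2, another synthetase, was also dim and measured only through its CT arrays (3 LP and 6 CT arrays well above background). It differed by -0.28 ± 0.16, with -0.44 on slide 1 and 0.03 on slide 2.

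**Figure D3:**
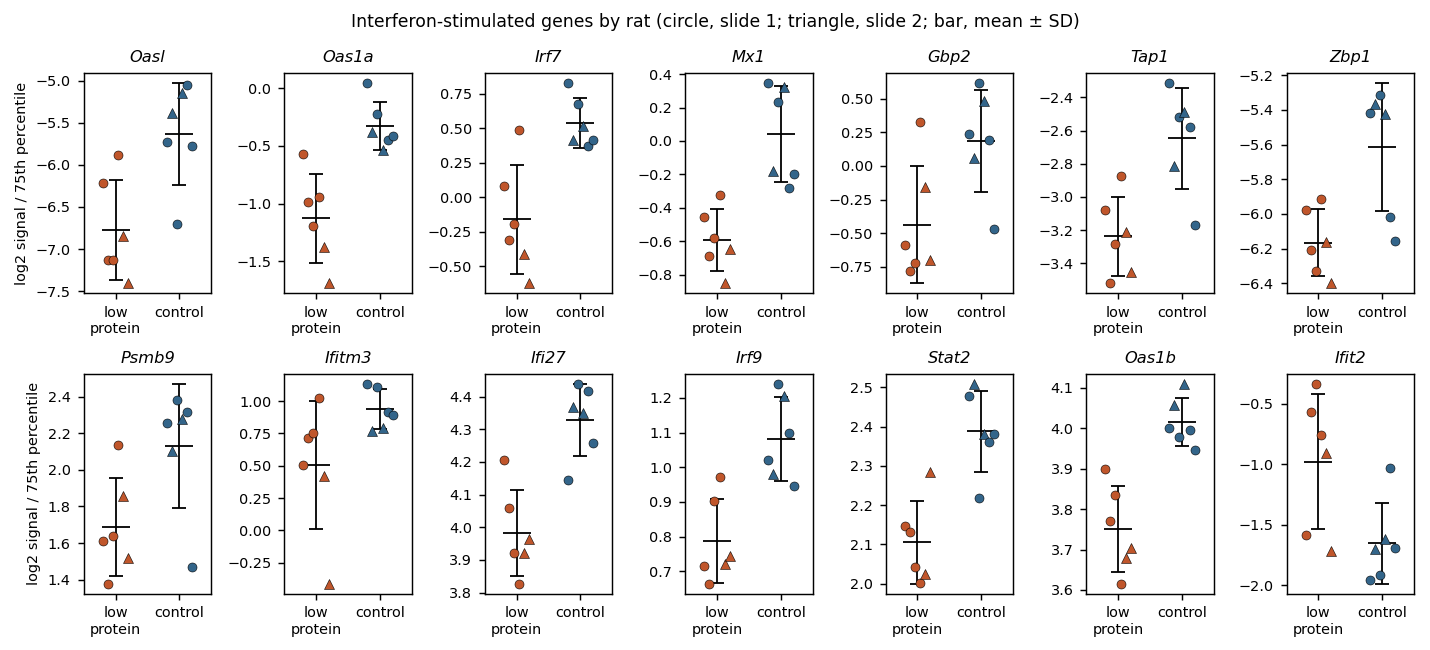
Level in each rat (log2 signal less the array's 75th percentile, vertical axis) for the 14 members given in full, with low protein rats left of control rats in each panel, circles for slide 1, triangles for slide 2 and bars for the mean and SD. In Oas1a, Mx1 and Oas1b all 6 low protein rats lie below all 6 control rats, in the other panels the diets overlap, and Ifit2 is the panel in which low protein rats lie higher.

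Among the transcription factors of the pathway, all 4 members had a difference below 0 and on both slides, with a median of -0.29. Irf7, the factor that amplifies type I interferon production, had levels of -0.63, -0.25 and 0.49 in LP rats, against 0.37, 0.47 and 0.83 in CT rats. In 5 LP rats it lay below every CT rat, while the highest LP rat, at 0.49, lay within the CT range (difference -0.70 ± 0.17; LP mean 0.616 times the CT mean). Irf9, the DNA-binding partner of STAT2, had levels of 0.66, 0.73 and 0.97 in LP rats, against 0.95, 1.06 and 1.24 in CT rats. The ranges met at 1 rat of each diet, and the difference was -0.30 ± 0.08, with -0.27 for a second probe. Stat2, which carries the activation domain of that complex, had levels of 2.0, 2.09 and 2.28 in LP rats, against 2.22, 2.38 and 2.51 in CT rats. The difference was -0.28 ± 0.07, nearly equal on slide 1 (-0.28) and slide 2 (-0.29), and 5 LP rats lay below every CT rat. Irf1, a factor induced mainly by interferon gamma, had 0.40, 1.03 and 1.34 in LP rats, against 0.66, 1.26 and 1.83 in CT rats, and its difference of -0.29 ± 0.21 was within the spread between rats of a diet.

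Mx1, a dynamin-like GTPase that blocks replication of influenza and other viruses in rodents, had levels of -0.85, -0.61 and -0.33 in LP rats, against -0.28, 0.03 and 0.35 in CT rats. The 2 diets did not overlap, with a difference of -0.63 ± 0.13 and an LP mean 0.645 times the CT mean. Its paralog Mx2, separated from it by 1 protein-coding gene, had a difference of -0.08 ± 0.09. The LP range of Mx2 lay inside its CT range, and 3 CT rats lay above every LP rat. Gbp2, a guanylate-binding protein that in mice attacks the vacuoles of intracellular pathogens, had levels of -0.78, -0.65 and 0.33 in LP rats, against -0.47, 0.22 and 0.62 in CT rats. In 4 LP rats it lay below every CT rat, and the difference was -0.62 ± 0.22, which did not pass over all genes. Gbp5, an inflammasome-linked protein of the same family, differed by 0.15 ± 0.44. That value rested on LP4, at -0.61, where the other LP rats lay between -3.53 and -2.78, and it was -0.29 without LP4.

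The immunoproteasome and the peptide transporter supply peptides to MHC class I. Tap1, a subunit of the transporter, had levels of -3.52, -3.25 and -2.88 in LP rats, against -3.17, -2.55 and -2.32 in CT rats. In 4 LP rats it lay below every CT rat, and in 5 CT rats above every LP rat. The difference was -0.59 ± 0.15, a second probe gave -0.56, and normexp background correction gave -0.40. Psmb9, an immunoproteasome subunit whose gene lies next to Tap1, had levels of 1.38, 1.62 and 2.13 in LP rats, against 1.47, 2.27 and 2.38 in CT rats. Its lowest CT value belonged to CT6, the ranges overlapped, and the difference was -0.44 ± 0.17. Psmb8, the other subunit measured, is also a direct neighbour of Tap1 and differed by -0.14 ± 0.13.

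Of the sensors and kinases that detect viral nucleic acid, Zbp1 (a sensor of Z-form nucleic acid that triggers cell death) had the most negative difference. Its levels were -6.40, -6.19 and -5.92 in LP rats, against -6.15, -5.42 and -5.31 in CT rats. In 4 LP rats it lay below every CT rat, and the difference was -0.55 ± 0.16. As a dim probe it moved with the background correction, to -0.21 after normexp and -0.27 in the deposited values. Eif2ak2, the kinase PKR that halts translation on double-stranded RNA, differed by -0.26 ± 0.16, and a second probe gave -0.28. Dhx58, a regulator of RNA helicase sensing, differed by -0.21 ± 0.10. The sensor Ifih1 (MDA5) did not differ by more than its error, at 0.00 ± 0.14, nor did Trim25, a ubiquitin ligase of the RIG-I pathway, at 0.09 ± 0.12.

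Ifi27, a small membrane protein of mitochondria known in human as a strongly interferon-induced gene, had levels of 3.83, 3.94 and 4.20 in LP rats, against 4.14, 4.36 and 4.44 in CT rats. In 5 LP rats it lay below every CT rat, with a difference of -0.35 ± 0.08 and an LP mean 0.786 times the CT mean. Ifitm3, which blocks viral entry at endosomes, had levels of -0.41, 0.61 and 1.03 in LP rats, against 0.77, 0.90 and 1.14 in CT rats. Although 5 LP rats lay below every CT rat, the spread among LP rats was wide and the difference was -0.43 ± 0.20. Among the other antiviral effectors, Lgals3bp (a secreted glycoprotein) differed by -0.38 ± 0.17, Bst2 (tetherin, which holds budding virions at the cell surface) by -0.37 ± 0.18, and Ifi44 by -0.06 ± 0.09. Cmpk2, a mitochondrial nucleotide kinase, differed by -0.41 ± 0.22, while its direct neighbour Rsad2 (viperin, which makes a chain-terminating nucleotide) differed by 0.05 ± 0.30.

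Isg15, a ubiquitin-like protein that is attached to other proteins, had levels of -0.74, -0.06 and 0.61 in LP rats, against -0.16, 0.38 and 0.65 in CT rats. Its difference was -0.41 ± 0.21 with wide overlap. Usp18, which removes ISG15 and dampens the type I receptor, differed by -0.38 ± 0.15. The PARP family members Parp9 and Parp14, the ubiquitin ligase Dtx3l that pairs with Parp9, and the nuclear helicase Helz2 differed by -0.27 ± 0.17, -0.01 ± 0.12, -0.20 ± 0.12 and -0.22 ± 0.31. The probes of a gene did not always give the same size: second probes of Dtx3l and Helz2 gave -0.43 and -0.52. These second probes were far dimmer, with mean levels of -5.89 and -5.62 beside 1.06 and 2.59 for the probes used.

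Ifit2, which binds viral RNA and restrains its translation, had the largest of the 4 differences above 0, the others being those of Gbp5, Trim25 and Rsad2. The levels of Ifit2 were -1.72, -0.83 and -0.33 in LP rats, against -1.96, -1.70 and -1.03 in CT rats. In 4 LP rats it lay above every CT rat, and the difference of 0.68 ± 0.24 was positive on slide 1 (0.84) and slide 2 (0.35), without passing over all genes. Ifit3, its direct neighbour and partner, had -4.24, -3.82 and -3.04 in LP rats, against -3.84, -3.51 and -3.13 in CT rats, and differed by -0.28 ± 0.19. Ifit1 read -9.60 to -6.79 in LP rats and -9.45 to -9.19 in CT rats, all but 1 of these readings not well above background.

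The rats of a diet did not contribute alike. LP4 had the highest level of the LP rats in 19 of the 35 members, beside 9.83% of all genes, and LP6 had the lowest in 17, beside 19.8% of all genes. Among CT rats, CT1 was highest in 16 members (24.7% of all genes) and CT6 lowest in 16 (21.9% of all genes). Relative to the CT mean of each gene, the median member lay at -0.25 in LP1, -0.33 in LP2, -0.19 in LP3, -0.05 in LP4, -0.36 in LP5 and -0.58 in LP6. The same median lay at 0.20 in CT1, -0.15 in CT2, 0.11 in CT3, 0.07 in CT4, 0.01 in CT5 and -0.14 in CT6. LP4 thus lay inside the range of the CT rats on this measure, and the other 5 LP rats lay below all 6 CT rats. Below the CT mean were 32 members each in LP5 and LP6, 31 in LP1, 30 in LP2, 24 in LP3 and 20 in LP4.

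**Figure D4:**
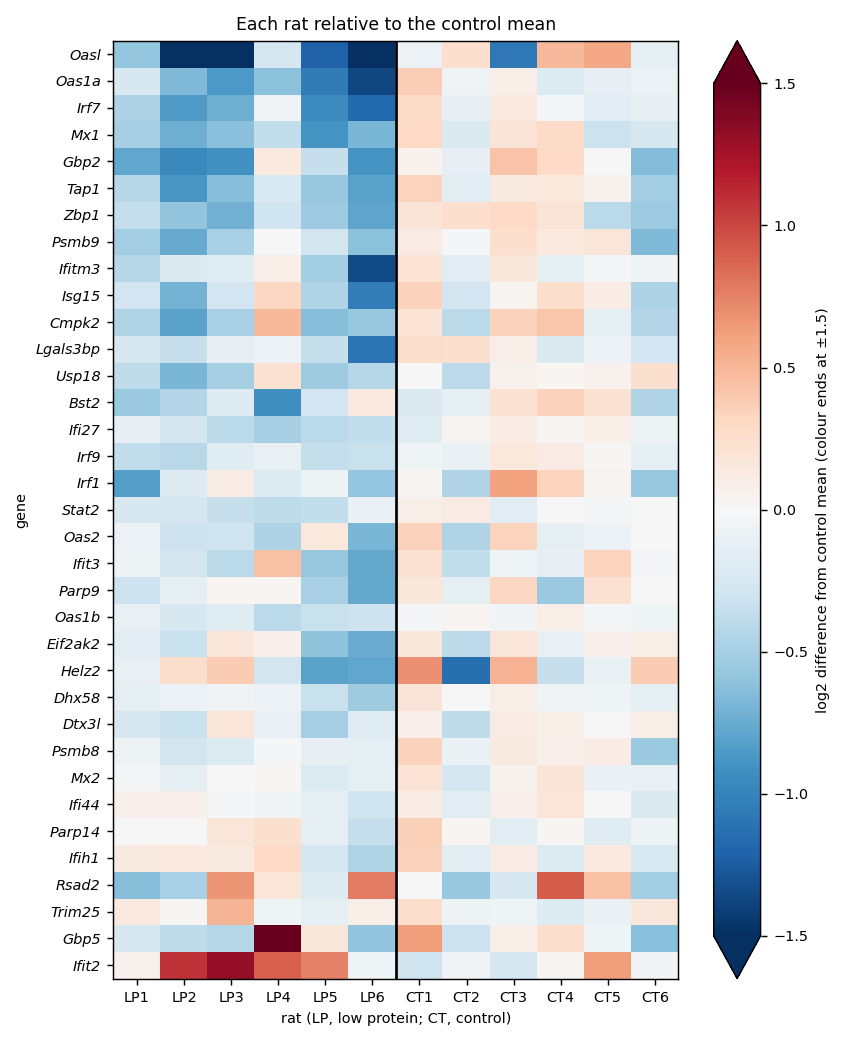
Level of each of the 35 measured members in each rat, less the control mean of that gene (log2 colour scale), with low protein rats in the left columns and control rats in the right columns. The column of LP6 is the one with the lowest median (-0.58), and the column of LP4 is the low protein column closest to the control mean (-0.05).

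Genes of the interferon pathway that are not among the 38 were counted by list. In all, 124 such genes were listed, 100 had a probe and 89 were measured, of which 5 fell and 0 rose at an adjusted p under 0.05 over all genes, where 3.05% of all genes fell and 3.48% rose. At an unadjusted p under 0.05, 20 of the 89 were lower and 1 was higher, beside 11.3% lower and 10.3% higher of all genes. Their differences were below 0 in 70 of 89 (78.7%), with a median of -0.15, beside 55.1% and -0.03 over all genes. The 5 that fell were all among the other interferon-induced effectors, of which 41 of 54 were measured. In that list 37 of 41 differences were below 0, 34 on both slides (38.2% of all genes), and the median was -0.22.

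Cd274, which encodes the checkpoint ligand PD-L1 and is induced by interferon gamma, had levels of -7.03, -6.58 and -6.29 in LP rats, against -6.09, -5.40 and -4.96 in CT rats. Every LP rat lay below every CT rat, and the difference was -1.14 ± 0.23. The probe was dim, with 3 LP and 6 CT arrays well above background. Cd274 was thus measured only through its CT arrays, the diet in which it was higher. Its difference and its place among the 5 that fell are therefore given as a description, without a test. The difference was -0.34 after normexp background correction. Oas1k fell by 0.82 ± 0.16 (limma adjusted p = 0.0125) and Oas1i by 0.80 ± 0.17 (limma adjusted p = 0.0168), both without overlap between the diets. These 2 are close relatives of Oas1a, and their probes ran parallel to that of Oas1a over the 12 arrays, the SD of the log2 gap to the Oas1a probe being 0.098 for Oas1k and 0.066 for Oas1i. Whether the 3 probes read separate transcripts was not tested, so they may not count as 3 separate results. The remaining 2 genes, named after their values were seen, were Trafd1, a feedback regulator of innate signalling (-0.33 ± 0.08, limma adjusted p = 0.0243, no overlap), and Oasl2 (-0.65 ± 0.17, limma adjusted p = 0.0352, overlapping). The count of 5 became 10 without CT6 and 8 without LP4, and it became 3 without CT3, CT4, LP1, LP2 or LP5.

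In the 6 pathway lists other than these effectors, 0 genes passed in either direction in the fit to all 12 arrays, although some did under an alternative. None of the 3 measured ligand genes (Ifna4, Ifna5 and Ifnk) passed, and Ifnk, an interferon known from keratinocytes, had the smallest p (0.44, limma adjusted p = 0.244; 0.0444 without LP4). Ifna2, Ifnb1 and Ifng were not well above background on enough arrays to be measured. The 7 receptor and JAK kinase genes had a median difference of -0.13, and Jak2, a kinase of the gamma receptor, had the smallest p of them (-0.23, limma adjusted p = 0.310). Of the 11 other sensors and adaptors, Ikbke, a kinase that activates IRF3 and IRF7, had the smallest p (-0.34, limma adjusted p = 0.0729). It passed under 4 of 26 alternatives, with the lowest adjusted p after normexp correction (0.0301, limma), and among them without LP4 (adjusted p = 0.0415, limma). The 7 negative regulators had a median of -0.04, with Ptpn6 (a phosphatase) at -0.17 (limma adjusted p = 0.187), and the 12 other genes of MHC class I antigen processing had a median of -0.07, with B2m (the light chain) at -0.18 (limma adjusted p = 0.157). Counts at an unadjusted p under 0.05 in these 6 lists were 5 lower and 1 higher of 48 measured, beside 11.3% lower and 10.3% higher of all genes.

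**Figure D5:**
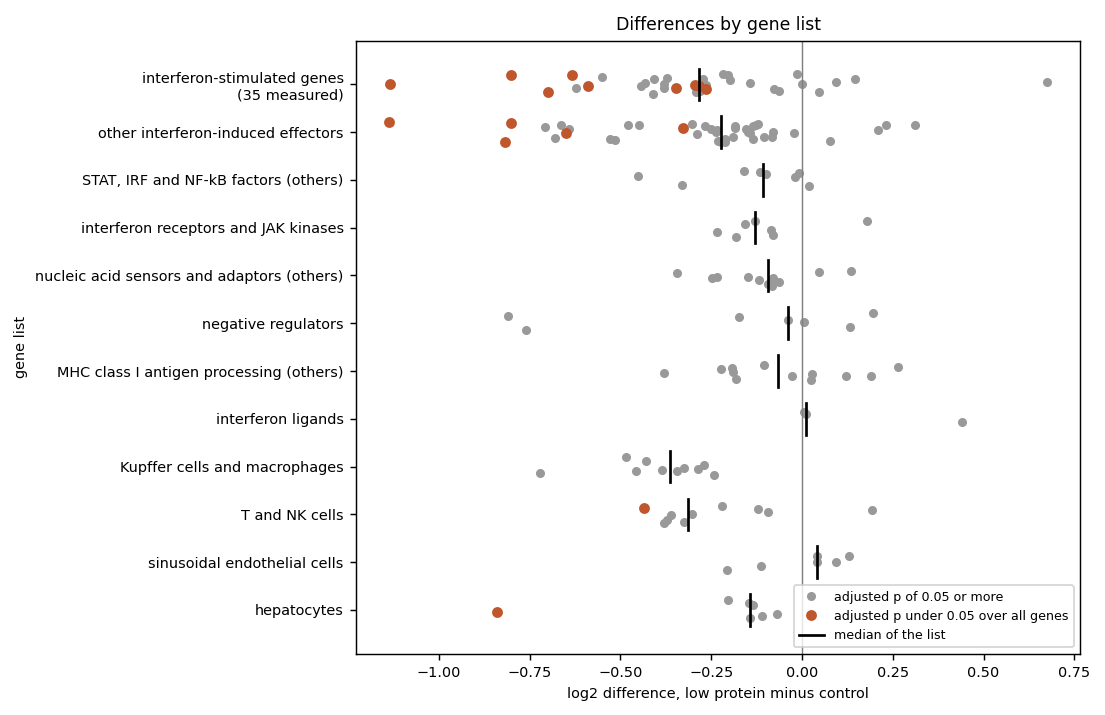
Log2 difference (low protein minus control, horizontal axis) of every measured gene in the interferon-stimulated genes, in the other interferon pathway lists and in 4 lists of cell type markers, with coloured points for an adjusted p under 0.05 over all genes and a vertical bar at the median. The medians are -0.28 for the interferon-stimulated genes, -0.22 for the other effectors and -0.36 for the Kupffer cell markers.

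Markers of liver cell types moved along with the members in part. Of the 11 Kupffer cell and macrophage markers, 10 were measured. All 10 had a difference below 0 on both slides, as had 38.2% of all genes, and the median was -0.36. None passed over all genes (limma), and 7 were lower at an unadjusted p under 0.05, as were 11.3% of all genes. Adgre1 (the F4/80 antigen) had the smallest p (-0.49, limma adjusted p = 0.111, and 0.0237 without CT6). Their summed level, in multiples of the array's 75th percentile, ranged over 26.3 to 35.3 in LP rats (median 30.7) and over 26.1 to 51.2 in CT rats (median 39.4). Such a sum gives the brightest probes of a list the most weight. CT6 was the lowest CT rat in all 10 of these markers and LP6 the lowest LP rat in 6, as both were in many members. LP4, the highest LP rat in 19 members, was the highest in 2 of the 10 macrophage markers. Their part in the members' differences was not tested.

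Of 12 T and NK cell markers 10 were measured, and their summed level was 1.14 to 1.42 in LP rats and 1.05 to 1.93 in CT rats. The difference was below 0 in 9 of these 10 markers, with a median of -0.31, beside 55.1% and -0.03 over all genes. Among them Ptprc, the leukocyte antigen CD45, fell by 0.43 ± 0.11 on the log2 scale (limma adjusted p = 0.0292), a call that was lost under 14 of 26 alternatives, including the omission of CT1, CT2, CT3, CT4, CT5, LP1, LP2, LP5 or LP6 (adjusted p up to 0.0730, limma). Of 5 markers of plasmacytoid dendritic cells, the main producers of type I interferon, 3 were measured, and their summed level was 0.437 to 0.499 in LP rats and 0.510 to 0.618 in CT rats. All 3 had a difference below 0, with a median of -0.23. Of these Tcf4, a factor that many other cell types express too, fell by 0.26 ± 0.07 on the log2 scale (limma adjusted p = 0.0477), and this call was lost under 20 of 26 alternatives, including the omission of any single rat other than LP4 (adjusted p up to 0.0999, limma). The 7 hepatocyte markers summed to 632 to 825 in LP rats and 748 to 866 in CT rats. All 7 had a difference below 0, with a median of -0.14. Among them Apoa1, the main protein of high-density lipoprotein, fell by 0.84 ± 0.14 on the log2 scale (limma adjusted p = 0.00387). No marker passed in the lists of B cells (2 of 5 measured, limma adjusted p of Cd22 0.334), neutrophils (2 of 6), sinusoidal endothelial cells (6 of 8), stellate cells (7 of 7), cholangiocytes (5 of 5) or erythroid cells (2 of 3). The median differences of these lists were -0.16, 0.35, 0.04, -0.20, -0.23 and 0.07, in the same order. Above 0 were 2 of 2 measured neutrophil markers and 4 of 6 endothelial markers, and below 0 were 6 of 7 stellate and 4 of 5 cholangiocyte markers. The part of these cell types in the members' differences was not tested either.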

How the data were processed

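Total RNA of each liver was labelled with Cy3, per the labels, and 1 rat was hybridised to each of 12 arrays. Per the file headers, the authors scanned and quantified the arrays with Agilent Feature Extraction 12.0.3.1, and the deposited files hold processed and median intensity on a linear scale, not scaled between arrays. The authors' deposited value table equalled the median intensity at 100% of spots, with column medians of 51.5 to 65.5.

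Here, outlier-marked spots (453 to 739 of 58717 per array) were set missing, the log2 processed intensity was taken less the 75th percentile of each array (942 to 1317), and spots of a probe were averaged. No spot was saturated, and 61.2% to 69.9% of spots were well above background. Array data carry no read depth, so precision is set by the number of arrays, with a median standard error of 0.126 per difference. Probes were named by unversioned RefSeq accession through RefSeq names of GRCr8 (21208 of 45598, to 16661 genes). The headers name the older build rn4, so no coordinates are given except those of the RefSeq promoters. Probes were kept that stood well above background on 5 or more of the 6 arrays of either diet, and the probe with the highest mean stood for its gene. This left 21874 genes, which R 4.3.3 tested together by limma 3.58.1 (two-sided, lmFit then eBayes) and adjusted by Benjamini-Hochberg. Of these, 11395 carried a gene symbol. The rest were probes without a symbol, counted by array identifier, and the shares of all genes given above include them. The p-values measure the spread between rats.

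The members and the lists were chosen with earlier results of these data known. The text names every member, gives levels over the rats of each diet for the 10 members with the largest differences and for those that passed over all genes (14 in all), and names of each other list up to 3 genes that passed with the smallest adjusted p, or 1 with the smallest p. Levels of Irf1, Isg15 and Ifit3 were given beyond this rule, and 1 gene that the rule names is not reported here. The fit was also tried on simulated data (LP minus CT, 21874 genes) with each gene's own mean and spread, but with noise independent between genes. In these data 67 genes changed by 1.5-fold, 67 by 2-fold and 66 by 4-fold. The fit found 44.8%, 83.6% and 97.0% of them, with 5.06% of its calls false. Fewer genes changed there than the 1429 called in the livers, and no rat or slide shifted many genes together. These shares may therefore not hold for the diet comparison. Alternatives covered background correction (normexp with an offset of 50, on the median signal), scaling, the deposited values, the dim-probe filter, the spread estimate, outlier spots, the mean of a gene's probes, slide, rat number, each rat left out and an adjusted p under 0.01. Plots came from matplotlib 3.10.9, and tables from pandas 2.3.3 with numpy 2.4.6 (Python 3.11.15) and from data.table (version 1.17.8).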

Additional observations from a re-analysis of the deposited data

Results flagged for a closer look

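In 10 of 108 groups of 6 rats checked, the highest or lowest rat stood apart from the other 5 of its diet by more than Dixon's critical value, and chance alone gives about 1 in 20 such groups. Of these, 7 were in the 70 groups of members. LP4 stood above the other LP rats in Gbp5 (-0.61, next rat -2.78), Usp18 (-1.19, next -1.80) and Cmpk2 (-1.47, next -2.40). LP6 stood below them in Lgals3bp (-0.62, next 0.13). CT5 stood above the other CT rats in Ifit2 (-1.03, next -1.62). CT2 stood below them in Dtx3l (0.78, next 1.15), and CT6 in Psmb9 (1.47, next 2.10).

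The other 3 were cell type markers. CT6 was lowest of the CT rats in the leukocyte antigen Ptprc (-2.01, next -1.58) and in Pdgfrb of stellate cells (-2.40, next -1.86). LP4 was lowest of the LP rats in Cdh5 of endothelial cells (-4.93, next -4.65).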

How the results depend on the processing

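Of the 33 to 36 members measured under each alternative run, between 27 and 32 had a difference below 0, and their median difference lay between -0.36 and -0.15. Counts of calls moved more. Without scaling, 891 genes were called over all genes in place of 1429, 1 member in place of 9, and 3 other pathway genes in place of 5. With no scaling the median of all genes moved to 0.11, a shift of 0.13, and the calls were 76.2% higher in LP, in place of 53.3%. With no filter on dim probes the counts were 618, 2 and 3. Within slide 1 they were 151, 0 and 1, and within slide 2 they were 13, 0 and 0. At an adjusted p under 0.01 they were 437, 0 and 0. With each rat left out in turn the counts ran between 854 (without CT3) and 1310 for all genes, between 2 and 9 for members, and between 3 and 10 for other pathway genes, and without LP4 1 pathway gene (Ifnk, adjusted p = 0.0444, limma) was called higher, against 0 otherwise. Other pathway genes called lower were 8 after normexp and 8 in the deposited values. The mean of each diet was taken off each gene, and rats of the 2 diets that share a number were then correlated over genes. These correlations ran from 0.034 to 0.26, and 2 of 6 LP rats correlated best with the CT rat of their own number. The labels do not link the numbers across diets, and these values cannot decide whether the numbers pair the rats. With rat number as a replicate block, 7 members were called (6 of the 9, with Zbp1 added) and 9 other pathway genes. Of the members that passed, Oas1a also passed under 23 and Mx1 under 22 of 26 alternatives, Ifi27 under 17, Irf7 under 16, Tap1 under 13, Oas1b under 11, Irf9 under 10, Stat2 under 9, and Oasl under 8 of 25. The cause of these moves was not tested. Signal over background limits Oasl, Oas2, Zbp1 and Cd274, whose differences shrink under other background treatment, and 12 arrays limit all.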
